A study of Homo sapiens with 12 samples.

Results

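RNA from RCC4 cells in which WWTR1 had been silenced was compared with RNA from control RCC4 cells, all of them treated with vehicle only. RCC4 is an established human line of clear cell renal carcinoma that lacks functional VHL, so that its hypoxia-inducible factors stay active in normal oxygen. The control cells (siNT) received a non-targeting siRNA and the silenced cells (siTAZ) an siRNA against WWTR1, the gene of the coactivator TAZ. Both were kept on siRNA for 2 days and then on DMSO for 7 hours, in a serum-containing medium without erastin. Each group held 3 arrays, so the comparison used 6 of the 12 arrays of the series, chosen by their sample titles and numbered as there. The other 6 arrays, of siNT and siTAZ cells given 1 µM erastin for the same time, served below as a separate measure of the siRNA effect. The comparison covered all 11963 genes with a probe set of their own on the array. Where a gene had several, the one brightest on average over the 12 arrays stood for it.

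TAZ and its relative YAP carry the output of the Hippo pathway. Kinases of the pathway hold both proteins in the cytoplasm, and when they are released they enter the nucleus and switch on genes through TEAD transcription factors, which provide the DNA binding that TAZ and YAP lack. In epithelial and mesenchymal cells this output is known for genes of growth, cell division, adhesion and the extracellular matrix.

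All signals below are on the log2 scale, and changes are siTAZ minus siNT with their standard error, from 3 arrays per group. The words rose and fell are kept for genes with an adjusted p under 0.05 in a limma fit over all genes. Array medians in vehicle lay between 6.48 and 6.54. Over genes, the correlation was 0.9979 to 0.9987 within groups and 0.9923 to 0.9937 between them. The actin control, whose 3′ minus 5′ signal reads RNA integrity, gave 2.40 to 2.97 in siNT and 2.62 to 2.70 in siTAZ, so the groups overlapped. Signals have no detection call. Genes whose mean was under 5.61 in both groups, a level set from 36 markers of blood, nerve and liver cells, are called dim and given no size. The number of siRNA sequences is not given in the sources used here, and the loss of WWTR1 and any other effect of the siRNA cannot be told apart. In RNA from whole cultures, fewer cells of a kind and less RNA per cell cannot be told apart either.

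WWTR1 itself read 12.33, 12.29 and 12.24 in the siNT arrays and 9.46, 9.31 and 9.26 in the siTAZ arrays. The groups lay far apart, and the silenced cells held 13% of the control signal (-2.94 ± 0.07, adjusted p = 3.28e-10). The gene's other probe sets gave changes of -3.25 and -3.66. YAP1, the relative of WWTR1, read 8.55, 8.59 and 8.47 in the siNT arrays and 8.52, 8.58 and 8.46 in the siTAZ arrays, and its difference of -0.02 did not pass the test. TEAD1, a DNA-binding partner of both coactivators, read 6.98, 7.33 and 7.33 with siNT and 7.90, 7.89 and 7.64 with siTAZ. All 3 siTAZ arrays lay above all siNT arrays, and TEAD1 rose by 0.59 ± 0.10 (adjusted p = 0.000618). TEAD4 rose by 0.21, a call lost without siNT array 1 or siTAZ array 3 (adjusted p 0.0545 to 0.0577). VGLL4, a competitor of the coactivators for TEAD, rose by 0.37, while TEAD3 differed by 0.03 without passing. Of 10 measured Hippo kinases and scaffolds 1 rose, the kinase STK3 (0.42), and 2 fell, its relative STK4 (-0.30) and the scaffold WWC1 (-0.15). The call of STK4 was lost without siNT array 1, siNT array 3 or siTAZ array 3 (adjusted p 0.0675 to 0.0968), and that of WWC1 without siNT array 1, siNT array 2, siNT array 3, siTAZ array 2 or siTAZ array 3 (adjusted p 0.0639 to 0.131). AMOTL2 at -0.07 and NF2 at -0.14 did not pass.

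Among 18 measured target genes of YAP and TAZ, 7 fell and 2 rose, where 13.9% of all genes fell and 14.7% rose. F3, the tissue factor that starts blood clotting, had the largest fall at -1.50 ± 0.07. GADD45B followed at -0.74, then the matricellular gene CCN2 at -0.63, FJX1 at -0.59, the cardiac ankyrin repeat gene ANKRD1 at -0.47, the receptor kinase AXL at -0.30 and CCN1 at -0.27. CCN2 read 7.49, 7.39 and 7.25 with siNT and 6.81, 6.78 and 6.66 with siTAZ. ANKRD1 read 6.48, 6.55 and 6.48 with siNT and 6.14, 5.93 and 6.03 with siTAZ. In both genes the groups were separate. Their promoters are shown because they hold the letters CATTCC, the core of the DNA element bound by TEAD factors. They are RefSeq sequences of build GRCh38.p14 from 250 bases before to 50 bases after the gene's start, 5′ to 3′ on the gene's strand, with matches on either strand in capitals (CCN2 at chr6:131951323-131951622, minus strand, and ANKRD1 at chr10:90921038-90921337, minus strand).
CCN2: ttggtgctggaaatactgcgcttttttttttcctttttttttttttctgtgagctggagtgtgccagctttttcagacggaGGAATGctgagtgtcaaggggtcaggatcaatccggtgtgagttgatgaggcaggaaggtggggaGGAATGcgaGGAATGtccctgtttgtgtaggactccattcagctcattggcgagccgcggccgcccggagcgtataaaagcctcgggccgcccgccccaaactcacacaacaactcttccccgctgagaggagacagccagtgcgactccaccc
ANKRD1: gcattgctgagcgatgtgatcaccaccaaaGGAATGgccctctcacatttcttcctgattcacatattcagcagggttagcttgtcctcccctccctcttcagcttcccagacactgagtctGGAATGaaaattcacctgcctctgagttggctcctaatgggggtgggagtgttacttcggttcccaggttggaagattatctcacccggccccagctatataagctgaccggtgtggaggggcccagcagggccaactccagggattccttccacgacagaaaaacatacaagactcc
CCN2 held 3 matches and ANKRD1 held 2. Of the 6 fallen targets with a promoter in the table, these 2 held a match, as did 3 of the 7 targets that did not fall. Over all measured genes with a promoter, 11.3% held one. A match is a description of the letters and no evidence of binding.

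**Figure D1:**
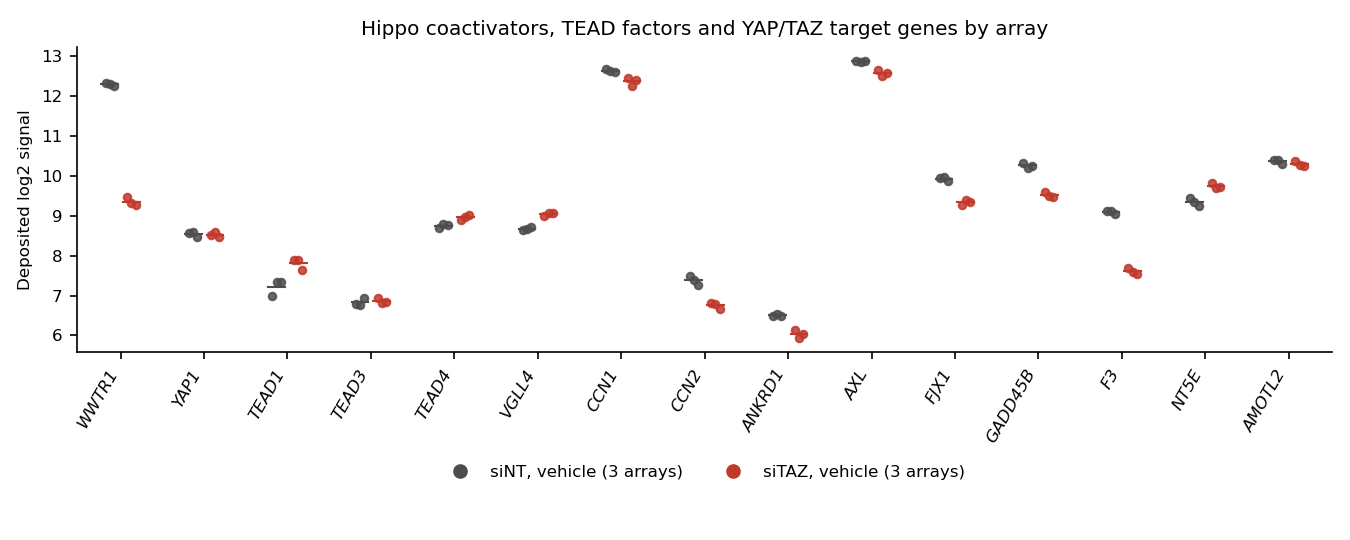
Deposited log2 signal (vertical axis) of 15 Hippo pathway and target genes in each vehicle array; grey points are siNT and red points siTAZ arrays, and short lines are group means. WWTR1 drops from 12.29 to 9.34, F3 from 9.10 to 7.60, and the YAP1 and TEAD3 arrays of both groups overlap.

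The change after silencing was broad and mostly of moderate size. Of 11963 genes, 3419 passed the test (28.6%), 1755 of them higher and 1664 lower in siTAZ. Only 157 of the called genes changed by 2-fold or more, 94 up and 63 down. A further 731 changed by 0.5 to 1 on the log2 scale, and 2531 by less than 0.5. The signals of both groups did not overlap in 43.8% of all genes, and this was required of the largest changes named next. The median size of a called change was 0.35, and the median change of all genes was -0.01. The gene groups below were therefore read by how many members moved and in which direction. Each count stands against the 14.7% of all genes that rose and the 13.9% that fell.

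After WWTR1, the largest falls were those of EMP1, a membrane protein of the PMP22 family, and SCG5, a secretory chaperone. EMP1 read 8.21, 8.25 and 7.88 with siNT and 5.88, 6.11 and 6.01 with siTAZ, with no overlap, and fell by 2.11 ± 0.13, although its other probe sets gave -1.31 and -0.14. SCG5 fell to 25.8% of its control signal (-1.96). DDIT4, an inhibitor of the growth kinase complex mTORC1, read 9.74, 9.77 and 9.75 with siNT and 7.87, 7.91 and 7.70 with siTAZ. All 3 siTAZ arrays lay far below the siNT arrays (-1.93 ± 0.09). ADM, the vasodilator peptide adrenomedullin, fell by 1.86 ± 0.09. The other genes among the 15 largest falls were TNFRSF11B (-1.95, to a dim level), the decoy receptor osteoprotegerin, EVI2A (-1.86, to a dim level), the lipoprotein lipase inhibitor ANGPTL4 (-1.70), the insulin receptor substrate IRS2 (-1.61), the syntaxin STX2 (-1.61), NXPE3 (-1.54), the nuclear pore gene NUP58 (-1.54), the secreted DKK3 (-1.53, its other probe sets -1.45, -1.73, -0.09 and -0.06), C1orf116 (-1.51) and F3.

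CXCL14, a chemokine of epithelia, had the largest rise. It read 6.64, 6.87 and 6.89 with siNT and 9.18, 9.22 and 9.42 with siTAZ, which is a 5.54-fold higher signal (2.47 ± 0.10). ELF3, an epithelial ETS factor, read 7.31, 7.36 and 7.27 with siNT and 9.08, 9.02 and 9.14 with siTAZ, and rose by 1.77 ± 0.06. FGFR3, a fibroblast growth factor receptor, read 7.03, 7.15 and 7.21 with siNT and 8.52, 8.86 and 8.85 with siTAZ; its other probe set differed by 0.03, so the rise rests on 1 probe set. The remaining 12 largest rises were those of the autophagy gene TECPR2 (1.94, its other probe set 0.21), the repressor ZBTB20 (1.89, its other probe sets 2.11, 1.69 and 0.05), the repressor BACH2 (1.77, from a dim level), SH3YL1 (1.77), DENND5B (1.75), the desmosomal cadherin DSC2 (1.72, from a dim level), the scramblase family gene PLSCR4 (1.65), the RNA-binding gene FMR1 (1.60), ARHGAP5 (1.59), PCYOX1L (1.54), PLXDC2 (1.51) and LRP12 (1.51).

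**Figure D2:**
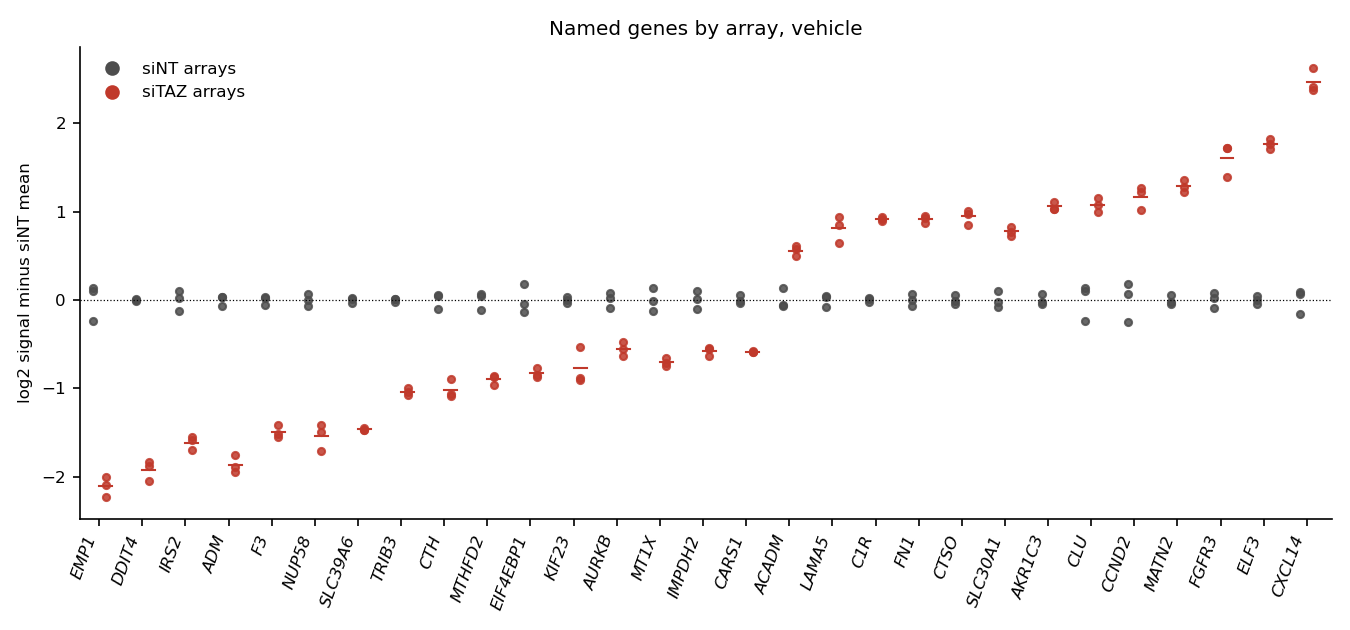
Log2 signal of 29 named genes in each vehicle array, minus the mean of the 3 siNT arrays of that gene (vertical axis); grey points are siNT arrays, red points siTAZ arrays and red lines siTAZ means. In all 29 genes the 3 red points lie on one side of the 3 grey points, from EMP1 at -2.11 to CXCL14 at 2.47. This separation was required when the largest rises and falls were chosen, and 43.8% of all genes show it.

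Most cytosolic aminoacyl-tRNA synthetases fell, by small amounts, while nearly all cytosolic ribosomal proteins did not pass. Aminoacyl-tRNA synthetases load amino acids onto tRNA. Of 17 measured genes of cytosolic synthetases, the complex scaffold AIMP1 included, 14 fell and the other 3 did not pass. The median change was -0.32 against -0.01 for all genes. AIMP1, which is not itself a synthetase, was among the 3 (0.09, its other probe set -0.30). CARS1, for cysteine, read 12.03, 12.11 and 12.04 with siNT and 11.47, 11.47 and 11.48 with siTAZ. YARS1, for tyrosine, read 12.46, 12.51 and 12.39 with siNT and 11.91, 11.95 and 11.97 with siTAZ. In each the siTAZ arrays lay below all siNT arrays, at -0.59 ± 0.05 and -0.51 ± 0.05. LARS1 (-0.56), WARS1 (-0.50), TARS1 (-0.38), SARS1 (-0.33) and AARS1 (-0.33) fell too, as did VARS1 at -0.69, whose other probe set gave -0.10. Of 10 mitochondrial synthetases, 3 fell, NARS2 (-0.57), HARS2 (-0.55) and IARS2 (-0.24), and WARS2 rose by 0.18, a call lost without siNT array 1, siNT array 2, siTAZ array 1, siTAZ array 2 or siTAZ array 3 (adjusted p 0.0715 to 0.158).

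Falls also occurred among genes of the ATF4 programme, while enzymes that make amino acids moved both ways. ATF4 is the transcription factor of the integrated stress response, which starts when a kinase phosphorylates the initiation factor eIF2. Of 25 measured genes of this response 16 fell and 3 rose (median -0.30). DDIT4, given above, is among the fallen, and it counts again in the mTORC1 and hypoxia lists below. TRIB3, a pseudokinase and target of ATF4, read 11.18, 11.17 and 11.14 with siNT and 10.13, 10.17 and 10.09 with siTAZ. Its groups were separate (-1.04 ± 0.05). CHAC1, which degrades glutathione, fell by 0.90 ± 0.11, and the factors CEBPB (-0.61) and DDIT3, or CHOP (-0.40), fell. ATF4 itself read 12.51, 12.46 and 12.52 with siNT and 12.31, 12.27 and 12.23 with siTAZ, a change of -0.23 ± 0.05. PPP1R15A, the eIF2 phosphatase subunit GADD34, fell by 0.73, while 2 of the eIF2 kinases rose, EIF2AK3 (PERK) by 0.73 ± 0.07 and EIF2AK1 (HRI) by 0.23. The call of EIF2AK1 was lost when its probe sets were averaged. EIF2AK2, the double-stranded RNA kinase PKR, at 0.06 did not pass.

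Of 17 serine, glycine and folate enzymes 8 fell and 1 rose. The mitochondrial folate enzymes MTHFD2 (-0.90 ± 0.06) and SHMT2 (-0.79 ± 0.06) fell, as did the cysteine-producing enzyme CTH (-1.02 ± 0.10) and MTRR, which reactivates methionine synthase (-0.54). MTHFD2 read 11.76, 11.78 and 11.61 with siNT and 10.75, 10.85 and 10.85 with siTAZ. The riser was methionine synthase itself, MTR, which read 9.09, 9.03 and 9.17 with siNT and 9.70, 9.72 and 9.76 with siTAZ. PHGDH, the first enzyme of serine synthesis, differed by -0.07 and did not pass. Without siNT array 2, 5 of these enzymes rather than 8 fell. Outside the folate genes, 3 of 7 enzymes that make asparagine, proline, glutamate and related amino acids fell and 3 rose. Asparagine synthetase ASNS (-0.99 ± 0.05) and the transaminase GOT1 (-0.38) fell, whereas argininosuccinate synthase ASS1 rose by 0.86 ± 0.05 and glutamine synthetase GLUL by 0.66 ± 0.06. Amino acid transporters moved both ways, 7 down and 5 up of 24. SLC7A5 (-0.47) and SLC1A5 (-0.45), which carry large neutral amino acids and glutamine, fell. The glutamate transporter SLC1A1 (0.80) and the lysosomal exporter SLC36A1 (0.45) rose.

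The promoters of ASNS, CARS1 and AARS1 are shown because they hold TGATGNAA, the amino acid response element through which ATF4 acts. They come from the same RefSeq table, with the match on either strand in capitals (ASNS at chr7:97872359-97872658, minus strand, CARS1 at chr11:3057374-3057673, minus strand, and AARS1 at chr16:70289457-70289756, minus strand).
ASNS: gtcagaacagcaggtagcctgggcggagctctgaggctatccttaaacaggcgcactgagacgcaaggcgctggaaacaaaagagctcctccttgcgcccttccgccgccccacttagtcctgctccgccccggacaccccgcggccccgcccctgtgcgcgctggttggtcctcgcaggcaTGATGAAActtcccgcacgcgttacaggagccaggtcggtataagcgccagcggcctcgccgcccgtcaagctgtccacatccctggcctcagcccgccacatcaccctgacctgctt
CARS1: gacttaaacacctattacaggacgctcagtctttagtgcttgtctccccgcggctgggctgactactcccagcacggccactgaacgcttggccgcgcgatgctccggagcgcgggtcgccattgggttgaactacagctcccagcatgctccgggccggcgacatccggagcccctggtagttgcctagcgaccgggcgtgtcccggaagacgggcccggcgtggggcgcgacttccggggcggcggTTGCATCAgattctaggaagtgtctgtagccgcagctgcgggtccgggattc
AARS1: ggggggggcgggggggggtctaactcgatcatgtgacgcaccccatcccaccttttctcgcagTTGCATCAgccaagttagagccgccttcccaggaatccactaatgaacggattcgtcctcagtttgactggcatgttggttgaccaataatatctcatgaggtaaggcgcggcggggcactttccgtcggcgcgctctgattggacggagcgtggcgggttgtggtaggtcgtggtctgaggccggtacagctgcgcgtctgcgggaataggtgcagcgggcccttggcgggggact
Of the 11 fallen genes of the cytosolic synthetase list with a RefSeq promoter, 4 held the element. So did 1 of the 3 list members that were not called, AIMP1 being one of these 3. The share over all measured genes was 2.25%, and it was 2.37% over all genes that fell.

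Translation initiation factors split, with 14 of 43 lower and 6 higher. EIF4EBP1, the mTORC1-regulated brake on cap binding, read 10.86, 10.76 and 11.09 with siNT and 10.13, 10.06 and 10.03 with siTAZ and fell by 0.83 ± 0.08. The scaffold EIF4G1 (-0.56 ± 0.06) and EIF2B5 of the eIF2 exchange factor (-0.47) fell, while the related brake EIF4EBP2 rose by 0.37. The fallen genes of this family numbered 9 without siTAZ array 2 or without siTAZ array 3. Mitochondrial ribosomal proteins fell in 16 (31.4%) and rose in 3 (5.88%) of 51 cases (median -0.11). MRPL16 (-0.63), MRPS12 (-0.49) and MRPL28 (-0.43) were lowest. For cytosolic ribosomal proteins 1 of 57 passed, RPL10L, which fell to a dim level and whose call was lost without siNT array 3, siTAZ array 1, siTAZ array 2 or siTAZ array 3 (adjusted p 0.0514 to 0.0941), and the median was -0.03. Their median signal in siNT was 13.38, against 7.25 for all genes, and whether such bright probe sets understate changes was not tested.

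Of 21 enzymes of nucleotide synthesis 10 fell and the other 11 did not pass (median -0.15). IMPDH2, the entry enzyme of guanine nucleotide synthesis, read 10.67, 10.76 and 10.55 with siNT and 10.02, 10.11 and 10.11 with siTAZ. RRM2, the ribonucleotide reductase subunit of dividing cells, read 11.06, 11.05 and 11.07 with siNT and 10.34, 10.30 and 10.33 with siTAZ. Both fell (-0.58 ± 0.07 and -0.73 ± 0.05), as did the purine enzyme PAICS (-0.45) and DTYMK, which makes dTDP (-0.40). GART fell by 0.44 on its main probe set and gave -0.35, -0.23, -0.51 and 0.11 on the others. Nuclear pore genes fell in 12 of 21 cases and rose in 1 (median -0.22). NUP58, a subunit of the central channel, read 8.41, 8.36 and 8.28 with siNT and 6.65, 6.93 and 6.86 with siTAZ, far below its control (-1.54 ± 0.09). The others were smaller, led by NUP50 (-0.50), NUP155 (-0.41) and NUP107 (-0.41). Of 25 RNA polymerase subunits 6 fell, led by POLR3K (-0.63) and POLR1E (-0.36), and 2 rose.

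**Figure D3:**
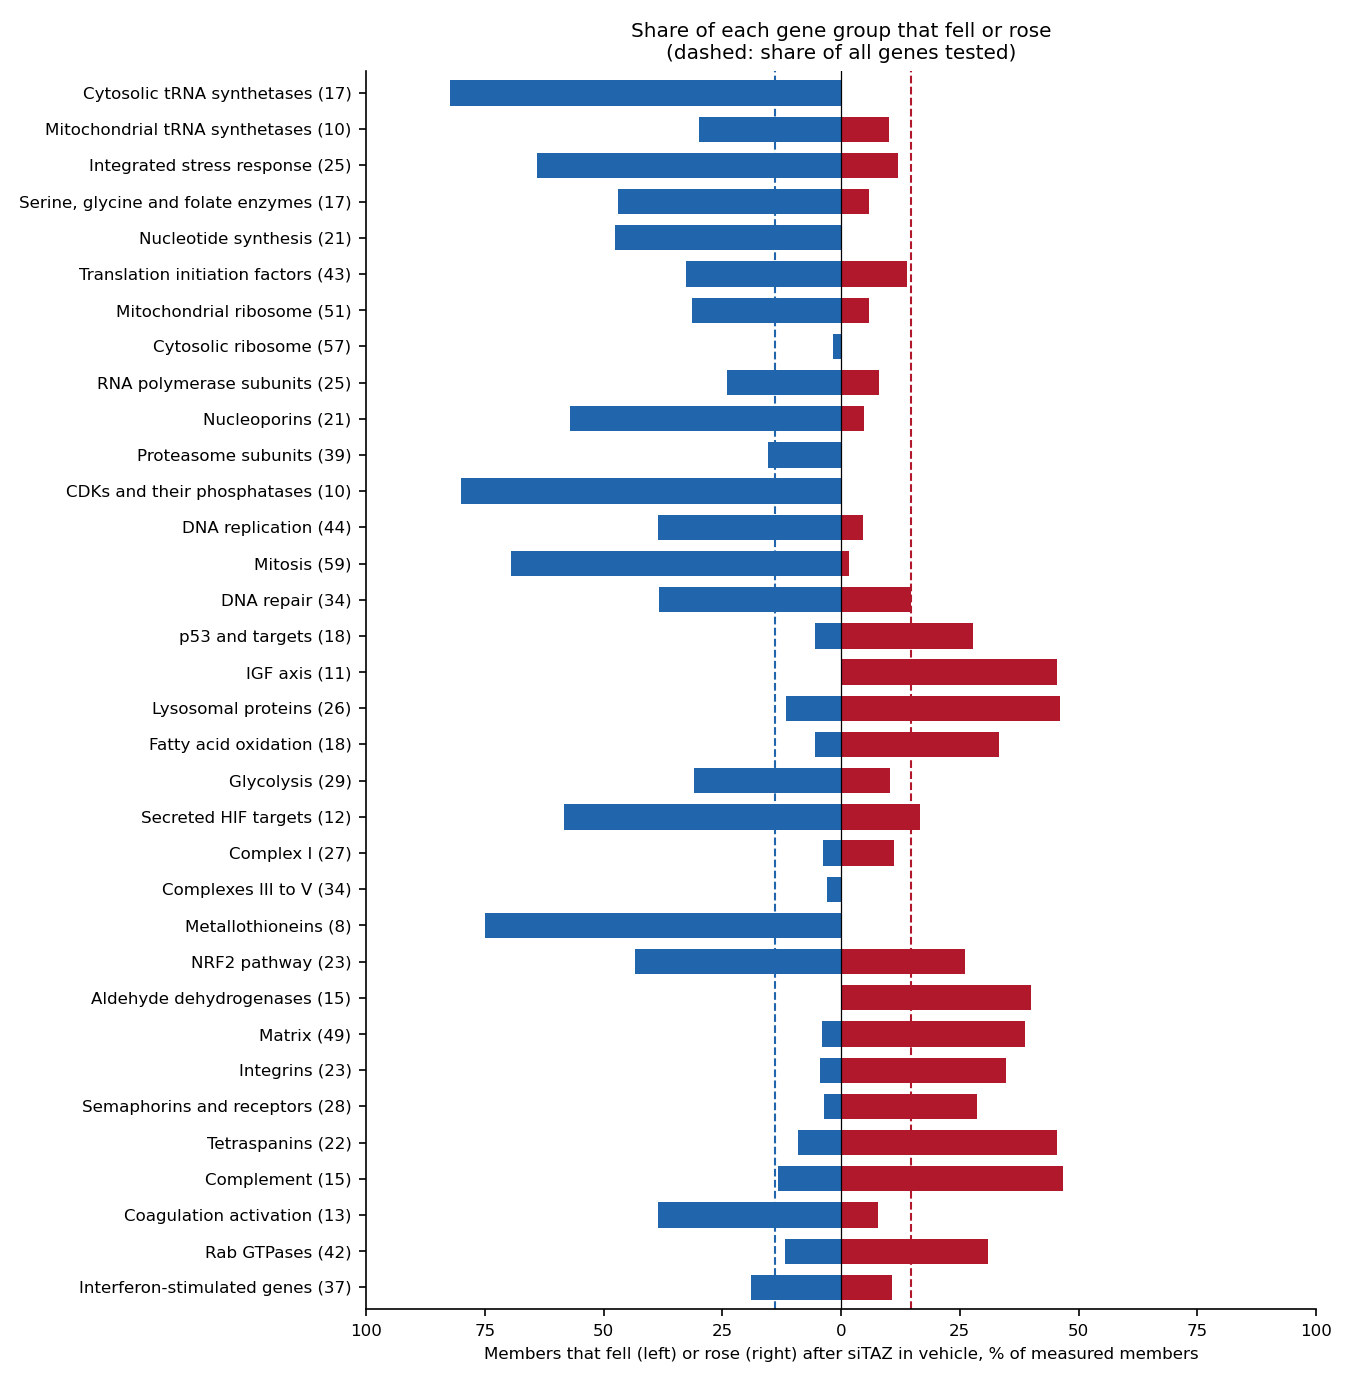
Share of measured members that fell (blue, left) or rose (red, right) after siTAZ in vehicle for 34 gene groups, in percent, with the number measured in brackets; dashed lines mark 13.9% and 14.7% of all genes. Cytosolic tRNA synthetases with the scaffold AIMP1 (82.4% fell) and mitosis genes (69.5%) extend far to the left. Complement (46.7% rose) and lysosomal proteins (46.2%) extend to the right, and cytosolic ribosomal proteins stay near 0.

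Genes of cell division fell widely. Of 59 measured mitosis genes 41 fell and 1 rose, with a median of -0.28. Falls occurred in each class, in 18 of 22 motor and spindle genes, 10 of 14 kinases and checkpoint genes and 13 of 23 centromere and chromosome genes. KIF23, the kinesin of the midbody that separates daughter cells, fell by 0.77 ± 0.09. KIF20A, another kinesin of cell separation, read 10.18, 10.14 and 10.20 with siNT and 9.53, 9.47 and 9.49 with siTAZ. AURKB, the kinase of the chromosomal passenger complex, read 9.08, 8.97 and 9.14 with siNT and 8.59, 8.50 and 8.42 with siTAZ. Neither gene's groups overlapped, and the changes were -0.68 ± 0.08 and -0.56 ± 0.07. CENPM (-0.66), UBE2S (-0.62), TTK (-0.50) and CDCA8 (-0.50) fell too, as did CENPA, the histone of centromeres (-0.40). PLK1, the polo kinase of mitotic entry, fell by 0.20 ± 0.06, a call lost without siNT array 1, siNT array 2 or siTAZ array 1 (adjusted p 0.0826 to 0.123). The mitotic cyclins CCNB1 (0.01) and CCNB2 (-0.14) did not pass. The 1 gene that rose was the condensin SMC4 (0.20). Its other probe sets gave -0.23 and -0.28, and its call was lost without siNT array 1, siNT array 3, siTAZ array 1, siTAZ array 2 or siTAZ array 3 (adjusted p 0.0575 to 0.0912).

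Some of these promoters are shown for the letters TTTGAA, the cell cycle homology region through which a repressor complex silences late cell cycle genes outside division. They come from the same RefSeq table and their matches are in capitals (KIF23 at chr15:69414099-69414398, plus strand, CENPA at chr2:26785806-26786105, plus strand, and PLK1 at chr16:23678639-23678938, plus strand).
KIF23: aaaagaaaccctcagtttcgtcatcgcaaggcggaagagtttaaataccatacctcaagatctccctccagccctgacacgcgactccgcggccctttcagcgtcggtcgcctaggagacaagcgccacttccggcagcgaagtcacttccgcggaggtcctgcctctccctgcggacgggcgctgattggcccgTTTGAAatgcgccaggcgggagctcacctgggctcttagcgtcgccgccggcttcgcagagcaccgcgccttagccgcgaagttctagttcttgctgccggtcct
CENPA: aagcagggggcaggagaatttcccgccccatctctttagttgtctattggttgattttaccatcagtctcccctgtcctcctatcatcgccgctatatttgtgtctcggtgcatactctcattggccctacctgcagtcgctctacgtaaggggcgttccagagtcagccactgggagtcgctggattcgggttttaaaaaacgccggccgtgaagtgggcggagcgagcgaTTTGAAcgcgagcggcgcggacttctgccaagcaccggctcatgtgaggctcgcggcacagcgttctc
PLK1: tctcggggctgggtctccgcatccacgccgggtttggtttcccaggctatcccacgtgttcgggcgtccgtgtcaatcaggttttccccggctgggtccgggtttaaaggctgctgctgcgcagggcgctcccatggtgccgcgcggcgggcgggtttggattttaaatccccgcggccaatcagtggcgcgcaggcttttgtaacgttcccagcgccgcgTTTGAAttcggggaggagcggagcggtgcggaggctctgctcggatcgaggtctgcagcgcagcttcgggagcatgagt
The letters lie before the gene's start in all of them. Of the 36 fallen mitosis genes with a promoter 27 held a match (75%), and of the 15 that did not fall 11 did (73.3%), where 11% of all measured genes and 13.1% of all fallen genes did. The match was thus common in the mitosis list, among fallen and other members alike.

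Kinases and phosphatases that drive the cycle fell in 8 of 10 cases. CDK6, which opens the G1 phase, read 6.99, 7.50 and 7.37 with siNT and 6.72, 6.84 and 6.58 with siTAZ. It fell by 0.57 ± 0.13, and CDC25C (-0.54), CDK4 (-0.39) and CDK1, the kinase of mitosis (-0.25), fell too. The cyclins of G1 diverged. CCNE2 (-0.72 ± 0.09) and CCNE1 (-0.45) fell, while CCND2 read 6.71, 6.82 and 6.38 with siNT and 7.65, 7.91 and 7.86 with siTAZ and rose by 1.17 ± 0.12, with CCND3 up by 0.36. Replication genes fell in 17 of 44 cases by small amounts (median -0.14), among them ORC6 (-0.34) and MCM7 (-0.27), and rose in 2. The count of fallen ones was 8 without siNT array 1 or siTAZ array 3, 10 without siNT array 2 and 11 without siTAZ array 2. Of 34 repair genes 13 fell, led by the uracil glycosylase UNG (-0.55), and 5 rose, led by FANCF (0.94 ± 0.12). The repair genes that rose numbered 2 without siNT array 1 or siTAZ array 3, and 3 without siNT array 3, siTAZ array 1 or siTAZ array 2. In a list of p53, the factor that halts damaged cells, and genes it induces, 5 of 18 rose and 1 fell. Risen ones included SESN1 (0.83 ± 0.06), the phosphatase PPM1D (0.74 ± 0.09) and TP53I3 (0.58). CDKN1A, the best-known target of p53, differed by 0.08 and did not pass.

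**Figure D4:**
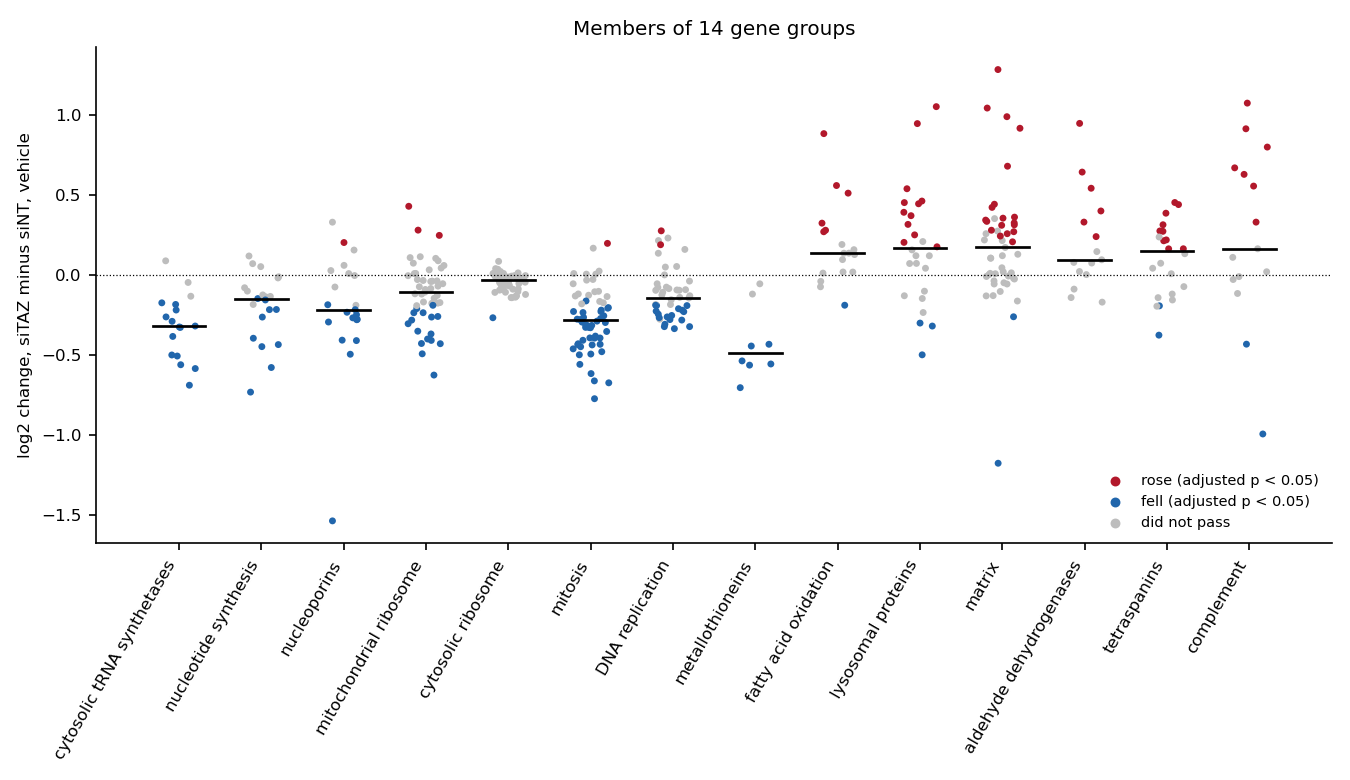
Log2 change of each measured member (points) of 14 gene groups, siTAZ minus siNT in vehicle; red points rose, blue points fell, grey points did not pass, and black bars are group medians. Medians run from -0.49 for metallothioneins and -0.32 for tRNA synthetases with the scaffold AIMP1 to 0.17 for matrix genes.

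Of 24 genes of insulin and mTORC1 signalling 9 rose and 4 fell, the latter 2 without siNT array 1, siNT array 2 or siTAZ array 1. DDIT4, whose values are given above, and IRS2 fell. IRS2 read 11.50, 11.58 and 11.36 with siNT and 9.78, 9.93 and 9.89 with siTAZ. Both receptors of the family rose, IGF1R by 0.39 and INSR by 0.35, while their other probe sets gave 0.46 and 0.08 for IGF1R and -0.06 for INSR, whose call was lost when its probe sets were averaged. The scavenger receptor IGF2R rose by 0.47 ± 0.08. PIK3R1, a regulatory subunit of phosphoinositide 3-kinase, read 8.37, 8.43 and 8.46 with siNT and 9.16, 9.09 and 9.15 with siTAZ. It rose by 0.71 ± 0.07 and the forkhead factor FOXO3 by 0.41. IRS1 (-0.04), AKT1 (-0.17) and RHEB (0.09) did not pass. SESN1, an inhibitor of mTORC1, rose as given above, and RRAGC, of the Rag GTPases that sense amino acids, rose by 0.30.

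Lysosomal proteins rose in 12 of 26 cases and fell in 3 (median 0.17). CTSO, a cysteine cathepsin, read 7.02, 7.12 and 7.05 with siNT and 7.92, 8.04 and 8.08 with siTAZ. LAMP2, a membrane protein of the lysosome, read 9.70, 9.77 and 9.71 with siNT and 10.86, 10.71 and 10.77 with siTAZ. They rose by 0.95 ± 0.07 and 1.05 ± 0.07, the latter with 0.30 and 0.29 on its other probe sets. CTSH (0.46), CTSC (0.45), the glycogen-degrading GAA (0.45) and PSAP (0.37) rose by less, and CTSL fell by 0.30. Of 24 autophagy genes only 3 rose and 1 fell. GABARAPL1, of the ATG8 family, rose by 0.81 ± 0.08, ATG14 by 0.43 and TFEB, the master factor of lysosomal genes, by 0.52 (0.10 on the other probe set).

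Most secreted targets of the hypoxia-inducible factors fell, and intracellular targets were divided. Of 12 secreted targets 7 fell and 2 rose (median -0.55), and of 16 intracellular targets 6 fell and 3 rose (median 0.07). DDIT4 is one of the latter. Beside ADM and ANGPTL4, the hormone STC2 (-1.23 ± 0.06), endothelin EDN1 (-0.83 ± 0.08) and the angiogenic factor VEGFA (-0.71 ± 0.07) fell. Of 8 measured HIF subunits and oxygen sensors 3 rose and 2 fell (median 0.17). EPAS1, the HIF-2α subunit that drives this tumour type, read 10.71, 10.72 and 10.70 with siNT and 9.28, 9.37 and 9.33 with siTAZ. It fell by 1.38 ± 0.08 on that probe set, and the other gave -0.27. Within the cell INSIG2, which retains SREBP in the endoplasmic reticulum, fell by 1.27 ± 0.09, and the mitophagy receptor BNIP3L (-0.72) and NDRG1 (-0.66) fell, whereas the clock repressor BHLHE41 rose by 0.95 ± 0.07 and carbonic anhydrase CA12 by 0.52. EGLN3 at 0.07 did not pass.

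In glycolysis 9 of 29 genes fell and 3 rose. HK2, the inducible hexokinase, read 9.09, 9.17 and 9.08 with siNT and 8.37, 8.36 and 8.34 with siTAZ, a change of -0.76 ± 0.07. The glucose carriers SLC2A1 and SLC2A3 fell (-0.56 and -1.24), the latter with -0.06 and -0.70 on its other probe sets. In fatty acid oxidation 6 of 18 genes rose and 1 fell (median 0.14). ACADM, the medium-chain dehydrogenase, read 9.40, 9.21 and 9.21 with siNT and 9.89, 9.85 and 9.77 with siTAZ. It rose by 0.56 ± 0.07 and HADH, a later enzyme of the cycle, by 0.51 ± 0.06. CPT1A, the gate of mitochondrial fat import, rose by 0.88 ± 0.11, with 0.17, 0.37 and 0.16 on its other probe sets. LPCAT1, which makes phosphatidylcholine, fell by 1.20 ± 0.06, and the fatty acid activating enzyme ACSL4 rose by 0.87 ± 0.15. Respiratory chain genes hardly moved: in complex I 3 of 27 rose and 1 fell, and in complexes III to V 1 of 34 fell.

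Redox genes did not move as 1 group. Of 23 genes of the NRF2 pathway 10 fell and 6 rose, and the fallen ones numbered 6 without siNT array 1 or without siTAZ array 1. The small MAF protein MAFF (-1.41 ± 0.06), haem oxygenase HMOX1 (-0.83 ± 0.06) and UGDH (-0.75) fell. The repressor BACH1 read 7.63, 7.75 and 7.31 with siNT and 8.41, 8.37 and 8.43 with siTAZ and rose by 0.84 ± 0.14, and NFE2L2, the gene of NRF2, rose by 0.48. AKR1C3, an aldo-keto reductase, read 10.24, 10.26 and 10.35 with siNT and 11.39, 11.32 and 11.31 with siTAZ, a rise of 1.06 ± 0.06; the near-identical AKR1C1 and AKR1C2 may share probes with it. Aldehyde dehydrogenases rose in 6 of 15 cases and the other 9 did not pass. They were led by ALDH5A1 (0.95, its other probe set 0.00) and ALDH2, the acetaldehyde enzyme (0.64 ± 0.07). GCH1, the first enzyme of tetrahydrobiopterin synthesis, fell by 1.19 ± 0.13.

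Most metallothioneins fell, and some zinc transporters changed. Metallothioneins, small proteins that bind zinc and copper, fell in 6 of 8 cases (median -0.49). MT1X read 12.83, 12.72 and 12.99 with siNT and 12.19, 12.10 and 12.14 with siTAZ. MT2A read 13.36, 13.33 and 13.43 with siNT and 12.84, 12.84 and 12.76 with siTAZ. Both were lower in every siTAZ array (-0.71 ± 0.07 and -0.56 ± 0.05), but family members are so alike that their probes cannot be taken as separate measures. SLC39A6, a zinc importer, read 12.69, 12.67 and 12.63 with siNT and 11.19, 11.21 and 11.20 with siTAZ, a change of -1.46 ± 0.05. Among importers 2 of 8 fell. SLC30A1, the zinc exporter of the cell surface, read 10.99, 11.10 and 10.93 with siNT and 11.73, 11.78 and 11.84 with siTAZ. It rose by 0.78 ± 0.06 and SLC30A9 by 0.47, among 3 of 7 exporters that rose. MTF1, the zinc sensor that drives metallothioneins and SLC30A1, rose by 0.30.

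Among called matrix genes most rose. Of 49 measured genes of matrix proteins and their processing enzymes 19 rose, 2 fell and 28 did not pass, with 16 dim (median 0.17). MATN2, a matrilin, read 8.55, 8.58 and 8.66 with siNT and 9.95, 9.87 and 9.82 with siTAZ. FN1, fibronectin, read 12.55, 12.48 and 12.41 with siNT and 13.35, 13.43 and 13.41 with siTAZ. The groups were separate in both (1.29 ± 0.07 and 0.92 ± 0.06). CCN3, a CCN family member, rose by 0.99 ± 0.13 and THBS3 by 0.68. The enzymes PLOD1 (0.31) and LOXL1 (0.36), which modify and crosslink collagen, rose, while the crosslinker TGM2 fell by 1.18 ± 0.06 (-0.92, -1.03 and -0.20 on its other probe sets). Laminins of basement membranes rose in 3 of 10 cases, LAMA5 by 0.81 ± 0.08, LAMC1 by 0.72 ± 0.06 and LAMB2 by 0.54, and LAMA2 fell by 0.24, a call lost without siNT array 1, siNT array 3, siTAZ array 1 or siTAZ array 3 (adjusted p 0.0596 to 0.105) and with averaged probe sets. Of 32 collagen chains, 18 of them dim, 5 rose (15.6%, close to the 14.7% of all genes), led by COL4A5 (0.78 ± 0.12), and 3 fell, COL6A3 (-0.80), COL13A1 (-0.51) and COL4A6 (-0.34), the last not when its probe sets were averaged. LAMA5 read 7.82, 7.83 and 7.71 with siNT and 8.44, 8.64 and 8.73 with siTAZ. ADAMTS3, a procollagen protease, rose by 1.25 ± 0.09, while the collagenase MMP1 (-0.62) and ADAMTS1 (-0.55) fell.

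Among called receptors for matrix and guidance cues more rose than fell, and most members of these families did not pass. Of 23 integrin subunits 8 rose and 1 fell, by 0.36 for the fibronectin receptor ITGA5 and 0.30 for ITGAV, with ITGB2 the one that fell (-1.12 ± 0.10). The risen integrins numbered 4 or 5 when any array but siNT array 2 was left out. Semaphorins, plexins and neuropilins rose in 8 of 28 cases, including SEMA4D (0.69 ± 0.08) and PLXNA1 (0.47 ± 0.05), and fell in 1, SEMA3C (-0.42). Tetraspanins, which organise membrane domains, rose in 10 of 22, by 0.45 for TSPAN6 and 0.44 for TSPAN14, and fell in 2. The count of risen tetraspanins was 6 without siNT array 2, siNT array 3 or siTAZ array 1. Of 18 Eph receptors and ephrins 1 rose, EPHA4 (1.05 ± 0.09), and 1 fell, EPHA2 (-0.27). Each is 5.56% of the list, under the shares of all genes (14.7% and 13.9%).

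Among called genes of complement, most rose. Most called genes fell in a list of clotting and plasminogen genes with their surface receptors, and most rose in a list of protease inhibitors and cofactors. Of 15 complement genes 7 rose and 2 fell. C1R, a protease of the first component, read 7.79, 7.81 and 7.76 with siNT and 8.68, 8.72 and 8.71 with siTAZ. CLU, clusterin, an inhibitor of the terminal complex, read 8.64, 8.60 and 8.25 with siNT and 9.66, 9.49 and 9.57 with siTAZ. They rose by 0.91 ± 0.06 and 1.08 ± 0.10, with C1S (0.63), C3 (0.56) and CFI (0.80), while the membrane inhibitor CD55 fell by 1.00 ± 0.09. Of 13 genes of clotting and plasminogen activation, surface receptors included, 5 fell and 1 rose. F3 read 9.12, 9.13 and 9.05 with siNT and 7.68, 7.58 and 7.54 with siTAZ. THBD, the anticoagulant receptor thrombomodulin, read 8.13, 8.14 and 8.01 with siNT and 6.88, 7.06 and 7.03 with siTAZ. Both fell with no overlap (-1.50 ± 0.07 and -1.10 ± 0.10), and so did the protein C receptor PROCR (-0.78) and the urokinase genes PLAU (-0.45) and PLAUR (-0.63, its other probe sets -0.61 and -0.19). THBD and PROCR restrain clotting, so the falls in this list are not falls of clotting activators alone. F8, factor VIII, rose by 0.57. Of 12 inhibitors and cofactors that restrain these proteases 5 rose, including SERPINE2 (0.46), SERPINF2 (0.61) and the anticoagulant cofactor PROS1 (0.38), and 1 fell, TFPI2 (-0.37), whose call was lost when its probe sets were averaged.

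Markers of cell shape and lineage moved in both directions. In the epithelial, mesenchymal and contractile lists more genes rose than fell. Of 28 epithelial genes 7 rose and 3 fell; beside ELF3, the adhesion molecule EPCAM rose by 0.73 ± 0.14 and plakoglobin JUP by 0.43, while the factor KLF4 (-0.81, its other probe set -0.26) and the desmosomal DSG2 (-0.72) fell. Outside this list the claudin CLDN4 fell by 0.85 ± 0.11. Of 16 mesenchymal genes 6 rose and 1 fell. The rises included the factors TCF4 (1.10 ± 0.12), ZEB2 (0.87 ± 0.19) and SNAI2 (0.85 ± 0.13) and the renal cadherin CDH6 (0.77), whereas ZEB1 (-0.20) and VIM (-0.09) did not pass. SNAI2 read 7.55, 7.46 and 7.16 with siNT and 8.13, 8.27 and 8.31 with siTAZ. Keratin KRT18 fell by 1.06 ± 0.06 and KRT19 rose by 0.58 ± 0.09. Genes of contractile actin rose in 10 and fell in 1 of 31 cases. Risen ones included FILIP1L (1.42 ± 0.05), calponin CNN1 (0.80 ± 0.14) and the myosin light chain MYL9 (0.67).

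In the TGF-β and BMP list 12 of 52 rose (23.1%) and 6 fell (11.5%), where 14.7% of all genes rose and 13.9% fell. TGFBR3, betaglycan, read 7.12, 7.24 and 7.07 with siNT and 8.25, 8.32 and 8.25 with siTAZ. ID3, a target of BMP signals, read 8.51, 8.50 and 8.88 with siNT and 9.73, 9.64 and 9.64 with siTAZ. They rose by 1.13 ± 0.10 and 1.04 ± 0.10 and the BMP receptor ACVR1 by 0.56. Wnt receptors and ligands rose in 8 of 23 cases (34.8%), with ROR1 (0.72 ± 0.06), LRP6 (0.55 ± 0.08) and WNT2B (0.70 ± 0.10). They fell in 2 (8.70%), among them WNT5A by 0.56 ± 0.08. The Wnt-binding SFRP4 rose by 1.10 ± 0.10. Growth factor ligands fell in 5 (26.3%) and rose in 2 (10.5%) of 19 cases. FGF1 (-0.94 ± 0.07), FGF2 (-0.38) and VEGFC (-0.41) fell, and PDGFD (1.04 ± 0.11) and PDGFA (0.35) rose. FGF1 read 7.89, 7.90 and 7.79 with siNT and 6.98, 6.97 and 6.82 with siTAZ. The ERK phosphatase DUSP6 fell by 0.44, and DUSP8 rose by 0.86.

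Cytokine and chemokine genes divided, 10 of 47 higher (21.3%) and 11 lower (23.4%), where 14.7% of all genes rose and 13.9% fell. The higher ones numbered 6 without siTAZ array 1. The neutrophil chemokines CXCL1 (-0.89 ± 0.07) and CXCL3 (-0.52) fell, with IL6 (-0.93 ± 0.06) and the interleukin 7 receptor IL7R (-0.58). IL6 read 9.01, 9.13 and 9.19 with siNT and 8.14, 8.26 and 8.15 with siTAZ. CCL2 (0.61) and CX3CL1 (0.78 ± 0.05) rose with CXCL14, as did the interleukin 1 receptor IL1R1, which read 8.70, 8.70 and 8.62 with siNT and 9.65, 9.51 and 9.65 with siTAZ (0.93 ± 0.06). LIFR rose from a dim level.

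Rab GTPases, which steer vesicles, rose in 13 of 42 cases and fell in 5, with RAB28 (0.78 ± 0.15), RAB15 (0.54) and RAB32 (0.44) up and RAB8B (-0.66 ± 0.10) down. The fallen Rab genes numbered 3 without siNT array 2 or siTAZ array 1. In the endoplasmic reticulum 7 of 19 sensor, degradation and transport genes rose, led by EDEM1 (0.89 ± 0.07), and 1 fell. Of 17 chaperones 5 fell, led by SDF2L1 (-0.66 ± 0.08) and HYOU1 (-0.50 ± 0.06), and 1 rose.

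Genes of cell death moved both ways. Of 30 genes of the BCL2 family, death receptors and caspases 8 fell and 5 rose. The survival gene BCL2A1 fell from 5.89 to a dim level. PMAIP1, the death-promoting NOXA, read 11.23, 11.26 and 11.20 with siNT and 10.81, 10.91 and 10.64 with siTAZ, with no overlap (-0.44 ± 0.10), and the survival gene BCL2L1 fell by 0.35. BCL2 itself rose by 0.75 ± 0.05, although its other probe sets gave -0.04, -0.09 and 0.31. The death ligand TNFSF10, or TRAIL, rose by 0.53 ± 0.06. Of 20 heat shock and chaperone genes, nearly all of the cytosol, 6 rose and 3 fell. CRYAB, a small heat shock protein, read 10.41, 10.32 and 10.69 with siNT and 11.08, 11.21 and 11.12 with siTAZ and rose by 0.66 ± 0.08, DNAJB1 by 0.49 and HSPB1 by 0.32, whereas the HSP90 partner FKBP4 (-0.67 ± 0.06) and the mitochondrial chaperonin HSPD1 (-0.28) fell.

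Glutathione and thioredoxin genes fell in 8 (22.2%) and rose in 5 (13.9%) of 36 cases, where 13.9% of all genes fell and 14.7% rose. GCLM, of the enzyme that starts glutathione synthesis, fell by 0.33 ± 0.07, TXNRD1, the thioredoxin reductase, fell by 0.38 ± 0.05 and peroxiredoxin PRDX1 fell by 0.32 ± 0.04. The rises numbered 3 without siNT array 1. GPX4, which reduces lipid peroxides, rose by 0.24 ± 0.07, a call lost without siNT array 1, siNT array 2, siTAZ array 1, siTAZ array 2 or siTAZ array 3 (adjusted p 0.0574 to 0.116). GSTA4, a glutathione transferase for lipid aldehydes, rose by 0.63 ± 0.07. In tetrahydrobiopterin metabolism QDPR, which regenerates the cofactor, fell with GCH1 (-0.62 ± 0.06), while SPR rose by 0.28 ± 0.05. Haem and iron genes rose in 5 (18.5%) and fell in 6 (22.2%) of 27 cases, with CPOX (0.54 ± 0.12) up beside the falls of HMOX1 and PPOX (-0.38). Rises among them numbered 2 without siNT array 1, and 3 without siNT array 2 or siTAZ array 1.

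Kidney lineage genes changed in few places. Of 33 genes of tubule cells, 15 of them dim, 5 rose (15.2%) and 2 fell (6.06%), where 14.7% of all genes rose and 13.9% fell. The rises were thus about as frequent as over all genes. KL, the co-receptor klotho, read 7.19, 7.21 and 7.24 with siNT and 8.29, 7.79 and 8.01 with siTAZ. DPP4, a brush border peptidase, read 8.87, 8.88 and 8.73 with siNT and 9.57, 9.69 and 9.68 with siTAZ. Neither overlapped between groups (0.82 ± 0.11 and 0.82 ± 0.06), and the kidney cadherin CDH16 rose by 0.62 ± 0.08. The lineage factor PAX8 at 0.07 did not pass. Among SOX factors SOX9 (0.54 ± 0.07) and SOX4 (0.51 ± 0.05) rose.

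Immediate early genes, which respond to growth signals within minutes, fell in 7 (30.4%) and rose in 5 (21.7%) of 23 cases. FOSL1, a partner of JUN, read 9.33, 9.38 and 9.42 with siNT and 8.81, 8.87 and 8.86 with siTAZ. It fell by 0.53 ± 0.05, as did BTG1 (-0.52 ± 0.05) and KLF2 (-0.37), while the growth response factor EGR1 rose by 0.79 ± 0.06. The TNF family ligand LTB, a lymphotoxin (-0.95 ± 0.07), and the receptor CD40 (-0.48) fell beside TNFRSF11B, and the death receptor TNFRSF21 rose by 0.73 ± 0.05. Of 21 NF-kB genes 4 rose and 4 fell, with the kinase IKBKE at -0.55 ± 0.07 and the inhibitor TNFAIP3 at 0.37 ± 0.05. The NF-kB rises numbered 2 without siNT array 2. Tyrosine phosphatase receptors split evenly, with PTPRD (1.19 ± 0.10) and PTPRE (0.88 ± 0.06) up and PTPRR (-0.98 ± 0.10) and PTPRK (-0.66 ± 0.05) down. PTPRD read 9.93, 9.89 and 9.86 with siNT and 11.10, 11.03 and 11.12 with siTAZ.

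Regulators of chromatin and RNA changed in both directions. Of 38 remodellers, acetylases and deacetylases 11 rose and 4 fell. The acetylase KAT2B read 7.45, 7.50 and 7.27 with siNT and 8.15, 8.10 and 8.13 with siTAZ, with no overlap (0.72 ± 0.11), and the SWI/SNF subunit SMARCC2 fell by 0.60 ± 0.08. Of 27 Polycomb genes and methyltransferases 6 rose and 5 fell, led by the DNA methyltransferase DNMT3B (0.60 ± 0.05) and the histone methyltransferase NSD2 (-0.51 ± 0.05). Without siNT array 1 or siTAZ array 3 each of these counts was 3. The remodellers that rose numbered 6 without siNT array 2, and 7 without siNT array 1, siNT array 3 or siTAZ array 3. Splicing factors were divided 9 up and 9 down of 46 (19.6% each), where 14.7% of all genes rose and 13.9% fell. HNRNPF (-0.64 ± 0.06) and SRSF4 (-0.42 ± 0.07) fell, and MBNL2, a regulator of alternative exons, rose by 0.67 ± 0.08 (0.30 and 0.10 on its other probe sets). Of 8 genes of RNA silencing, the machinery that uses siRNA, 3 fell and 1 rose, AGO3 (0.47 ± 0.11).

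Of 29 kinesins of the wider family, many of them also in the mitosis list, 13 fell and 6 rose (median -0.17). Of the 18 outside the mitosis list 4 fell and 6 rose. KIF21B fell by 0.89 ± 0.10 and KIF20A, a mitosis gene that acts in cytokinesis, changed by -0.68. KIF3A, the kinesin of cilium assembly, read 7.41, 7.47 and 7.43 with siNT and 8.50, 8.53 and 8.41 with siTAZ and rose by 1.04 ± 0.06. Calcium and cyclic nucleotide genes rose in 10 and fell in 4 of 33 cases. The calcium release channel ITPR1 fell by 0.74 ± 0.10, and the calcium pump ATP2A2 fell by 0.47 ± 0.06. PPP3CB, a catalytic subunit of calcineurin, rose by 0.70 ± 0.07, and PDE4D, a cyclic AMP phosphodiesterase, rose by 1.27 ± 0.10 with 0.00, 0.27 and 0.33 on its other probe sets. ATP6V1B2, a subunit of the proton pump of lysosomes, fell by 1.09 ± 0.11 while its partner ATP6V1A rose by 0.53 ± 0.05. The drug exporters ABCC4 (0.50 ± 0.05) and ABCC3 (0.40) rose.

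Some groups held calls at about the share of all genes or below it. Interferon-stimulated genes fell in 7 and rose in 4 of 37 cases. Without siNT array 2, siTAZ array 1 or siTAZ array 3 these counts were 4 and 2. ISG15 fell by 0.67 ± 0.09. Of 11 sensors of double-stranded RNA 1 rose and 2 fell. Proteasome subunits fell in 6 of 39 cases, 3 without siNT array 3 or siTAZ array 3, with PSMD2 at -0.60 ± 0.06. Of 47 markers of leukocytes, endothelium, red cells, fibroblasts and hepatocytes 0 passed the limma test, 0 had an unadjusted p under 0.05, and 42 were dim. Most of these markers belong to the lists that set the dim level, so that count was largely fixed by it. Of the 20 markers of endothelium and fibroblasts, which did not set it, 18 were dim. Among 9 neuron markers NEFL rose by 0.50 and NEFM fell by 0.49. Of 13 markers of clear cell carcinoma, a group with calls above those shares, 5 rose (38.5%), including PAX2 (0.40) and CDH6, 3 fell (23.1%), ANGPTL4, KRT18 and VEGFA, and 0 were dim.

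The erastin arrays gave the siRNA effect in cells that shared no array with the vehicle groups. Both sets of calls came from 1 fit with the same spread per gene, so they are not fully independent. Under erastin the actin control gave 1.49 to 2.82 in siNT and 3.01 to 3.63 in siTAZ, so there it moved with silencing and the groups did not overlap. There 15.6% of genes rose and 12.6% fell after siTAZ. Of the 1755 genes that rose in vehicle 1395 also rose under erastin (79.5%), and of the 1664 that fell 1144 also fell (68.8%). With that actin reading as a covariate in the erastin comparison, 1243 and 790 of these genes passed in the same direction. By group and without that covariate, 13 of the 14 fallen synthetases, 11 of 12 nucleoporins, 9 of 10 nucleotide enzymes and 24 of 41 mitosis genes fell again. Of risen genes, 18 of 19 matrix genes, 6 of 6 fatty acid oxidation genes and 8 of 12 lysosomal genes rose again. Other groups repeated less. Only 7 of 17 replication genes, 7 of 13 repair genes, 6 of 10 NRF2 genes and 2 of 7 interferon-stimulated genes fell again. Tetraspanins rose again in 4 of 10 cases and aldehyde dehydrogenases in 3 of 6. Calls in opposite directions occurred for 2 genes. SLC7A11, the subunit of the cystine transporter, fell by 0.28 ± 0.06 in vehicle and changed by 0.33 under erastin, and JAG1, a Notch ligand, rose by 0.17 ± 0.06 and changed by -0.25. The vehicle call of JAG1 was lost without siNT array 1, siNT array 3, siTAZ array 1, siTAZ array 2 or siTAZ array 3 (adjusted p 0.066 to 0.15). These 2 were singled out after their values were seen. The difference of the siTAZ effect between media was called by limma for 0 of 11963 genes (0%), and 764 had an unadjusted p under 0.05. The adjusted p of that difference was 0.0583 for SLC7A11 and 0.0583 for ASNS, which changed by -0.47 under erastin.

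**Figure D5:**
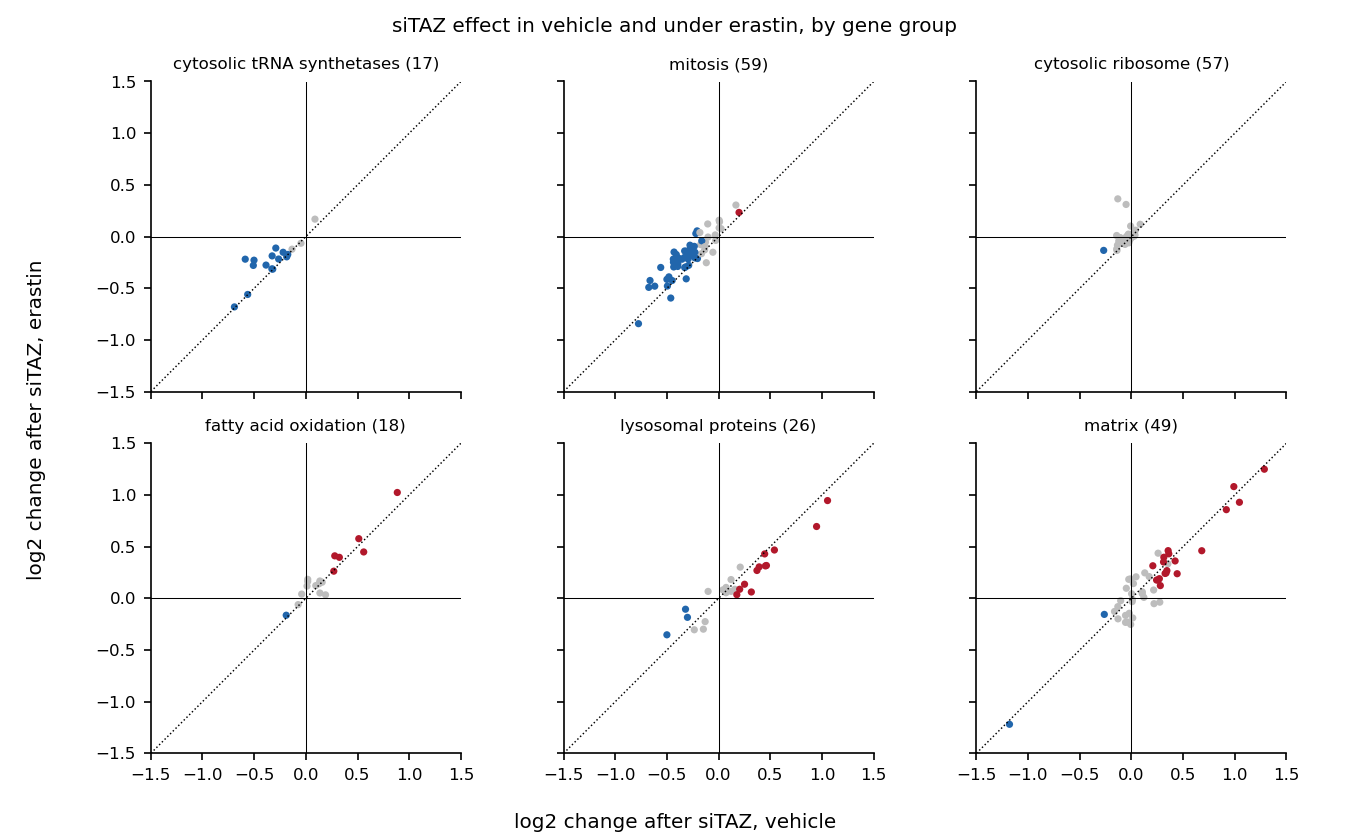
Log2 change after siTAZ in vehicle (horizontal) and under erastin (vertical) for the measured members of 6 gene groups, coloured by the vehicle test (red rose, blue fell, grey did not pass); the dotted line marks equal change. Fallen synthetases and mitosis genes lie in the lower left, with CARS1 at -0.59 and -0.22 and KIF23 at -0.77 and -0.84, and risen matrix genes lie near the line in the upper right, with MATN2 at 1.29 and 1.25.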

How the data were processed

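RNA of each culture was measured on 1 Affymetrix array. Per the submitters' processing notes, the authors used Affymetrix Expression Console and RMA. For versions and genome build, the sources used here give nothing. The deposited values are log2 probe set signals, and they were used as deposited. The labels describe the arrays of a group as biological triplicates, and 3 arrays per group limit the precision. Of 22277 probe sets, 62 were controls and were left out, 19064 named 1 gene, 1043 named several genes and 2108 named none. Genes were named only from the platform annotation, and the 11963 genes were each represented by 1 probe set.

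Group means over all 12 arrays were fitted with limma 3.58.1 in R 4.3.3 (lmFit and eBayes), with Benjamini-Hochberg adjustment over all genes. The fit was tested on simulated data. An exact permutation test of 3 against 3 arrays cannot give a p below 0.1 and was not used. Genes named are those of the Hippo pathway, the 15 largest called rises and the 15 largest called falls with no overlap of groups and a higher group that was not dim, and members of gene lists (up to 8 called members of lists over 12 genes, and members needed to say what did not pass). The members and lists were chosen with earlier results of these data known. Alternatives were centring, a filter on dim genes, averaged probe sets, a fit of the 6 vehicle arrays, a replicate block, an intensity trend, an RNA quality covariate and leaving out each vehicle array. Promoters came from the RefSeq table of GRCh38.p14, which matched 9563 genes.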

Additional observations from a re-analysis of the deposited data

How the results depend on the processing

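The 3419 called genes (1755 up and 1664 down) were between 3187 and 3796 under the alternatives that keep all arrays. With 1 vehicle array left out, 2809 to 3030 genes were called, 1463 to 1550 up and 1345 to 1490 down. The change of WWTR1 lay between -2.90 and -3.00 when 1 array was left out, and was -3.29 as the mean of its probe sets. The count of genes whose siTAZ effect differed between erastin and vehicle was 3 with centred arrays, 3 without the dimmest genes and 11 with an intensity trend, against 0. Of 322 named genes with a call, 14 lost it under at least 1 of the 13 alternatives run. The mean of all probe sets turned SMC4 to -0.10 and ended the calls of COL4A6, EIF2AK1, INSR, JAG1, LAMA2 and TFPI2, and fitting only the vehicle arrays ended those of GPX4, JAG1, PLK1, WARS2 and WWC1. Of 81 list counts of 4 or more, 59 stayed within 1.5 times under every alternative.

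Replicate numbers did not pair the arrays. Same-numbered siNT and siTAZ arrays deviated from their group means with correlations of 0.05, 0.17 and -0.05 over genes. Array pairs with different numbers gave -0.19 to 0.12. With the replicate number as a block, 3187 genes were called. Centring moved all changes by -0.008. The median standard deviation within groups was 0.0790 in siNT and 0.0705 in siTAZ.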

Other observations

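Zinc finger genes named ZNF, the largest family of human transcription factors, showed no common direction in vehicle. Of 231, 28 rose and 28 fell (12.1% each), under the 14.7% and 13.9% of all genes. By RefSeq gene order in GRCh38.p14, 14 measured ZNF genes lie on chromosome 19 from ZNF14 to ZNF254. Of these 8 rose, and all 14 differences were above 0 (median 0.33, 6 genes dim). Of the other 89 ZNF genes of chromosome 19, 4 rose and 12 fell (median -0.02). All 3 measured neighbours from ZNF107 to ZNF117 on chromosome 7 rose (median 0.83). Under erastin 7 of the 8 risen genes and all 3 neighbours on chromosome 7 rose again. These windows were chosen after the values were seen. Genes of such clusters are alike in sequence and may share probes, so their values are uncertain as separate measures.

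Of 1459 called genes with more than 1 probe set, 1087 had all other probe sets on the same side of 0. In 732 another probe set passed in the same direction, and in 33 one passed in the opposite direction.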
